A study of Homo sapiens with 4 samples.

Results

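ATF4 and 44 genes of the amino acid response, 45 genes in all of the 26475 in the count tables, were followed through 4 RNA-seq libraries of MDA-MB-468 mammospheres. MDA-MB-468 is an established basal-like triple-negative breast cancer line, and mammospheres are floating spheres grown from its cells. The genes were chosen by name, as ATF4, transcription factors tied to it, its reported targets and 9 cytosolic tRNA synthetases. No value enters that rule, but the list was drawn up with earlier results of these data known. All 45 were found under the symbols used below and all 45 had at least 74 reads in every library. They comprise 9 regulators, 5 enzymes of serine synthesis and one-carbon metabolism, 6 other amino acid enzymes, 8 amino acid transporters, 8 further outputs of the stress response and 9 tRNA synthetases.

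The 4 conditions had 1 library each. Control cells (CTL), whose inducible vector holds no guide against TCOF1, were grown without or with doxycycline (CTL and CTL+dox), and cells with an inducible TCOF1 guide were likewise grown without or with it (gRNA2 and gRNA2+dox). The labels give the genotype as wild type in CTL, CTL+dox and gRNA2, and as TCOF1 knockout in gRNA2+dox. Both lines carry Cas9 throughout and are pools sorted for their vectors, not clones, so gRNA2+dox may hold unedited cells, and each library pooled several plates of spheres. Where 4 values of a gene are listed, they stand in the order CTL, CTL+dox, gRNA2, gRNA2+dox.

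ATF4 is the transcription factor at the centre of the integrated stress response. When amino acids run short, haem is lacking or unfolded protein gathers in the endoplasmic reticulum, a kinase phosphorylates the initiation factor eIF2, general translation slows and the ATF4 message is translated more. Because much of this control acts on translation, the level of ATF4 mRNA is no direct reading of ATF4 protein. ATF4 binds DNA with C/EBP partners and switches on genes that make, import and activate amino acids. TCOF1 encodes treacle, a nucleolar protein with a known role in ribosomal RNA synthesis. In spheroid cultures of this line, other than these mammospheres, the authors reported no drop in the ribosomal RNAs they measured after knockout. The libraries allow the question of whether the ATF4 programme shifts in the TCOF1 knockout spheres.

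Promoters of some of these genes show the kind of site ATF4 uses. RefSeq promoter windows (GRCh38.p14, 250 bases before to 50 after a start) were found for 37 of the 45 genes, and were searched on both strands for TGATGNAA, the core of the C/EBP-ATF response element. It was present in at least 1 window of 15 of the 37 genes (40.5%), against 339 of the 11754 tested genes with a window (2.88%). Counted by window, 15 of 59 windows of the 45 genes (25.4%) held it, against 3.62% of all 35116 windows. Among the synthetases it was found in 6 of 8 with a window, among the transporters in 4 of 7, among the regulators in 3 of 8 and among the serine and one-carbon enzymes in 0 of 3. For the other amino acid enzymes it was 1 of 4, and for the further stress outputs 1 of 7. A match describes these letters and is not a measurement of binding. Many of the genes were listed because they are reported ATF4 targets, so the higher share is no independent result.

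Sites of 10 genes follow, 5′ to 3′ on the strand of the gene, with the match in capitals, because 4 of them are the classic members of the programme and 6 are synthetases that share the site. CEBPG is at chr19:33374045-33374104 (+), ASNS at chr7:97872443-97872502 (-), SLC1A5 at chr19:46784878-46784937 (-) and CHAC1 at chr15:40953236-40953295 (+). Their matches begin 42, 68, 97 and 209 bases upstream of a start, in that order. The starts used for CEBPG, ASNS and SLC1A5 are not the outermost. They lie inside the annotated genes, which begin at 33373709, 97928441 and 46788594.
CEBPG: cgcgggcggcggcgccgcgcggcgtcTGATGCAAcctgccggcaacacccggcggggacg
ASNS: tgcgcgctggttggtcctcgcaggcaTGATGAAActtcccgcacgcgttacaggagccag
SLC1A5: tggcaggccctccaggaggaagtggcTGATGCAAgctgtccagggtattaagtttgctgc
CHAC1: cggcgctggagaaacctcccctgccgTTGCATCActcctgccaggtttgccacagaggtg

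The synthetase windows are AARS at chr16:70289660-70289719 (-), GARS at chr7:30594834-30594863 (+), MARS at chr12:57488053-57488082 (+), NARS at chr18:57621804-57621833 (-), IARS at chr9:92293692-92293721 (-) and CARS at chr11:3057407-3057436 (-). In 5 of these 6 the site reads TGATGCAA on 1 strand or the other, and in GARS it reads TTTCATCA.
AARS: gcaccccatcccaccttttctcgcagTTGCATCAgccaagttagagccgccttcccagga
GARS: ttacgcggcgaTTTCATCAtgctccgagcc
MARS: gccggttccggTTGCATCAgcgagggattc
NARS: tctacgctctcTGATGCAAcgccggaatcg
IARS: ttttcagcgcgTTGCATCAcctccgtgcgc
CARS: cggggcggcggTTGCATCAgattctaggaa

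The libraries held 19960644 to 26322847 reads on genes, which were 79.7% to 81.0% of their reads, and TMM factors were 0.985 to 1.02. TCOF1, the targeted gene, had 49.9, 33.5, 50.6 and 20.0 CPM (counts per 1000000, TMM-scaled). Its log2 ratio with doxycycline was -1.34 (interval -1.50 to -1.18) for the gRNA2 cells, against -0.58 (-0.71 to -0.44) for the CTL cells, so the targeted gene was also lower with doxycycline in the cells without the guide. The markers fitted the line: 7 of 7 epithelial and basal markers were present, summing to 14799 to 16496 CPM, while ESR1 and PGR had at most 13 reads. Of white cell markers, PTPRC and CD3E had at most 3 reads, although CD68 had 1905 to 3036 and CD14 233 to 280. Of fibroblast and endothelial markers, LUM had at most 2 reads, CDH5 had 0, COL1A1 had 358 to 543, and PDGFRA had 35, 47, 87 and 88, more in both libraries of the gRNA2 pool. The part of this in the results was not tested.

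Many of these genes had abundant transcripts, as means over the 4 libraries. Transcript level is not a reading of ATF4 activity, and ATF4 protein was not measured. Per kilobase of transcript, 18 of 43 genes lay above 90% of the tested genes and 38 above the median tested gene (NUPR1, whose annotated transcripts differ widely in length, and DDIT4, with no canonical transcript in the annotation, were not ordered). ATF4 itself came first, at a mean of 661 CPM per kilobase over the 4 libraries, above 99.5% of tested genes. It was followed by SLC3A2 (333), the heavy chain that carries SLC7A5 and SLC7A11 to the membrane, by GARS (290), the glycyl-tRNA synthetase, and by PHGDH (276), the first enzyme of serine synthesis. EIF4EBP1, a brake on cap-dependent translation, had 250 CPM per kilobase and STC2, a secreted stanniocalcin, 231. At the other end were JDP2 (2.15), a repressor of the AP-1 family, CBS (2.23), which joins serine to homocysteine, and GDF15 (3.27), a secreted stress cytokine. The 4 libraries of GDF15 spanned 0.600 in log2, and near neighbours in the order, such as JDP2 and CBS, were not told apart.

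**Figure D1:**
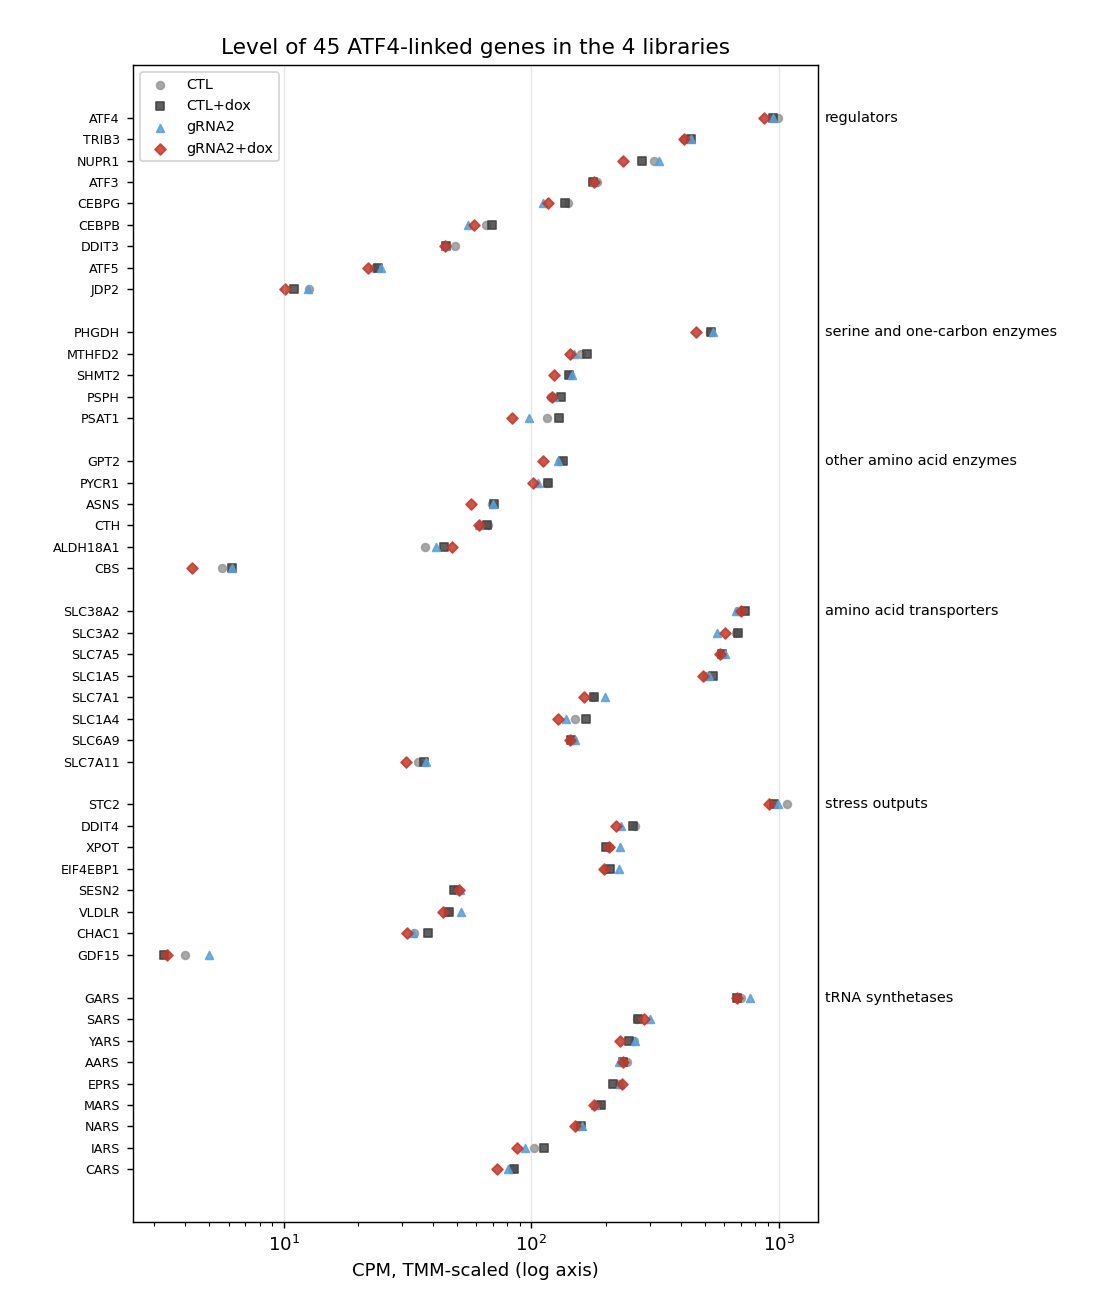
Level of each of the 45 genes in CPM (log axis), with 1 point per library and the genes grouped by role. Levels run from 3.29 CPM (GDF15, CTL+dox) to 1071 CPM (STC2, CTL), and for most genes the 4 points lie close together with gRNA2+dox often the leftmost.

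Between libraries, levels moved little. The highest and lowest of the 4 libraries differed by a median of 0.23 in log2, and by under 0.5 in 42 of 45 genes (93.3%). The same held for 71.5% of all tested genes and for 93.7% of those with a mean of at least 10 CPM. The range over libraries narrows with depth, and genes matched in level to the 45 were not compared. A gene was counted as lower or higher in a pair of libraries where its log2 ratio was at least 0.5 (1.41-fold) and its exact 95% interval (Clopper-Pearson, from the reads of the pair) did not reach 0. Intervals cover counting error only. With 1 library per condition the spread between cultures is unknown, each comparison is between libraries, and no p-value can be given.

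With doxycycline in the gRNA2 cells, 2 of the 45 genes, CBS and GDF15, were lower and 0 were higher, where 3.05% and 2.08% of all 15204 tested genes were. Small differences leaned one way: 36 of the 45 log2 ratios were below 0, against 54.2% of all tested genes and 53.1% of those with a mean of at least 10 CPM. The median was -0.09 (range -0.56 to 0.22), against -0.02 over all tested genes, and intervals lay wholly below 0 for 28 genes and wholly above it for 4, against 17.3% and 13.6% of tested genes. Intervals narrow with depth, and the median gene of the 45 had 3320 reads per library against 415 for the median tested gene. These genes share cells, library and scaling, so their number is a description and not a count of independent results.

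With doxycycline in the CTL cells, 0 of the 45 genes were lower and 0 higher, where 2.04% and 1.74% of tested genes were. Their log2 ratios were below 0 in 18 of 45, against 47.7% of tested genes, and had a median of 0.02. The ratios in the 2 pools, which have no library in common, had the same sign in 17 genes and opposite signs in 28, and 43.9% of tested genes had opposite signs. ATF4, NUPR1, STC2, GARS and YARS had intervals below 0 in both pools, as did 5.17% of tested genes, and ALDH18A1 and SLC38A2 had intervals above 0 in both, as did 4.83%.

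**Figure D2:**
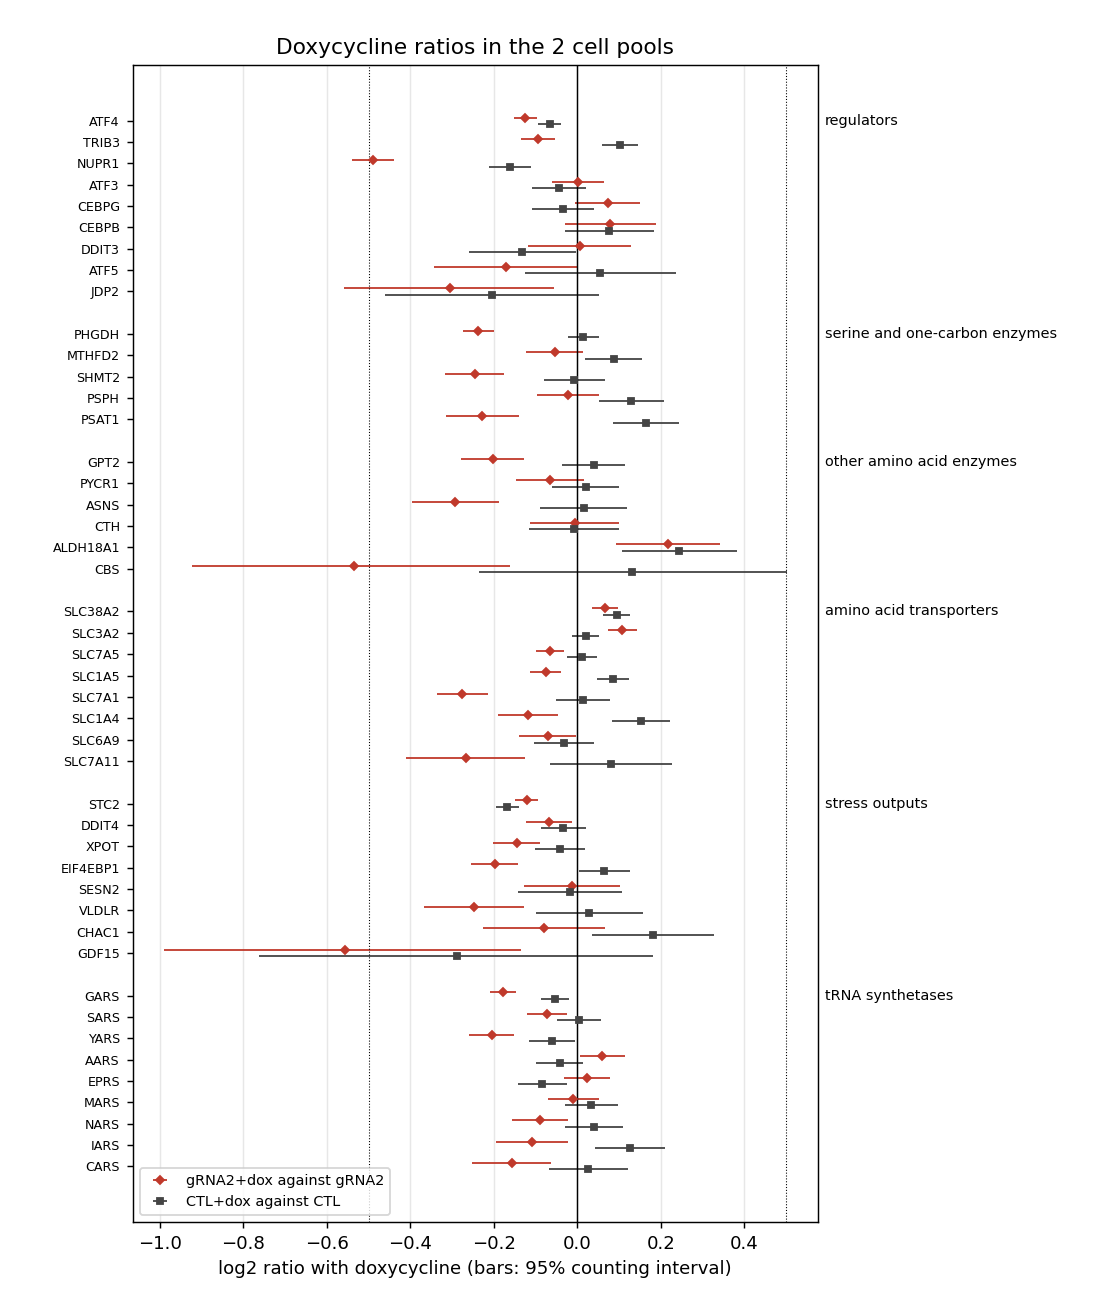
Log2 ratio with doxycycline for each gene in the gRNA2 cells (red diamonds) and in the CTL cells (grey squares), with 95% counting intervals as bars and dotted lines at 0.5 either side of 0. In the gRNA2 cells 36 of 45 points are left of 0 and in the CTL cells 18 are.

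The difference between these ratios, gRNA2 cells minus CTL cells, sets the guide's doxycycline response against that of doxycycline alone. It passed the same rule in CBS only, in the lower direction, where 3.87% of tested genes did and 2.90% did in the higher direction. The median difference was -0.13 over the 45 genes and -0.02 over all tested genes. It was below 0 in 35 of the 45, against 54.1% of tested genes and 54.0% of those with a mean of at least 10 CPM. TCOF1 itself had a difference of -0.76 (interval -0.97 to -0.56).

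The 9 regulators had a median difference of -0.06, the nearest to 0 of the 6 roles, with 5 below 0 and 4 above. Above 0 were DDIT3 (0.14), CEBPG (0.11), ATF3 (0.05) and CEBPB (0.003). Of these, only CEBPG had an interval that left out 0 (8.7e-05 to 0.21). ATF4 had 988, 944, 948 and 869 CPM. It was thus highest in CTL and lowest in gRNA2+dox, and was lower with doxycycline in both pools, with log2 ratios of -0.13 (interval -0.15 to -0.10) for gRNA2 cells and -0.07 (-0.09 to -0.04) for CTL cells. NUPR1, a small stress-induced nuclear protein, had 314, 281, 329 and 234 CPM. Its log2 ratio with doxycycline was -0.49 (-0.54 to -0.44) in the gRNA2 cells, just short of 0.5, against -0.16 (-0.21 to -0.11) in the CTL cells. ATF5, an ATF4-related factor, had 23.1, 24.0, 24.7 and 21.9 CPM, and its difference between pools of -0.23 had an interval that reached 0 (-0.47 to 0.02). DDIT3 (CHOP), the factor tied to death under prolonged stress, had 49.4, 45.1, 44.6 and 44.8 CPM, and ATF3, an early stress-induced repressor, had 183, 178, 179 and 179 CPM. Neither of these widely used readouts of the pathway had an interval off 0 with doxycycline in the gRNA2 cells. DDIT3 ends inside MARS on chromosome 12 (MARS 57488068 to 57516652, DDIT3 57516588 to 57520517, GRCh38), and the counts do not use strand, so reads in that overlap are set aside. TRIB3, a pseudokinase that feeds back on ATF4, had log2 ratios of -0.09 with the guide and 0.10 without it, both with intervals off 0.

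The 5 serine and one-carbon enzymes had differences between pools below 0, with a median of -0.24 and with intervals that did not reach 0, against 15.3% of tested genes with an interval below 0. The difference had sources in both pools. With doxycycline in the gRNA2 cells the intervals of PHGDH, SHMT2 and PSAT1 lay below 0, and in the CTL cells those of PSAT1, PSPH and MTHFD2 lay above it. PSAT1, the aminotransferase of the serine pathway, had 115, 129, 97.7 and 83.5 CPM. It was lowest in gRNA2+dox but already lower in gRNA2 than in both control libraries, and its ratios with doxycycline were -0.23 (gRNA2) and 0.16 (CTL), a difference of -0.39 (-0.51 to -0.28). PHGDH had 526, 532, 543 and 461 CPM, near level in 3 libraries and lower in gRNA2+dox, with a difference of -0.25 (-0.30 to -0.20). SHMT2, the mitochondrial serine hydroxymethyltransferase, had a difference of -0.24, with ratios of -0.25 (gRNA2) and -0.01 (CTL). For PSPH, the last enzyme of serine synthesis, the difference of -0.15 came from -0.02 (-0.10 to 0.05) in the gRNA2 cells and 0.13 (0.05 to 0.21) in the CTL cells, and its lowest library was CTL. MTHFD2, a mitochondrial folate dehydrogenase, had a difference of -0.14, from -0.05 (-0.12 to 0.01) and 0.09 (0.02 to 0.16). Summed over the 5 enzymes, the level was 1063, 1103, 1058 and 932 CPM.

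Among the other amino acid enzymes, 5 of 6 had a difference below 0 and the median was -0.16. CBS had few reads, 115, 139, 161 and 93, or 5.63, 6.17, 6.18 and 4.26 CPM. Its log2 ratio with doxycycline was -0.54 (-0.92 to -0.16) for gRNA2 cells and 0.13 (-0.23 to 0.50) for CTL cells, and the difference was -0.67 (-1.18 to -0.16). The CBS value is uncertain for a further reason: the hg38 assembly carries a near-identical copy of the gene, and STAR counts only reads with a single place. Reads with several places made up 4.85%, 4.02%, 4.57% and 3.39% of the 4 libraries, and the part of this in the CBS value was not tested. ASNS, asparagine synthetase and the best-known target of ATF4, had 69.7, 70.5, 70.0 and 57.2 CPM, so 3 libraries lay together and gRNA2+dox below them, with a difference of -0.31 (-0.45 to -0.16). GPT2, the mitochondrial alanine aminotransferase, had a difference of -0.24 (-0.35 to -0.14). ALDH18A1, which makes the precursor of proline, was 1 of 2 genes highest in gRNA2+dox, with 37.3, 44.2, 41.2 and 47.8 CPM. It was higher with doxycycline in both pools, by 0.22 (gRNA2) and 0.24 (CTL) on the log2 scale. CTH, which makes cysteine, and PYCR1, which makes proline, had differences of 0.00 and -0.08 with intervals that held 0.

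Of the 8 transporters, 7 had a difference below 0, with a median of -0.12. SLC7A11, which brings in cystine for glutathione, had 34.8, 36.8, 37.6 and 31.3 CPM and a difference of -0.35 (-0.55 to -0.14). SLC7A1, the carrier of arginine and lysine, had 178, 180, 198 and 164 CPM and a difference of -0.29 (-0.38 to -0.20). Both were highest in gRNA2 and lowest in gRNA2+dox. SLC1A4 and SLC1A5, carriers of small neutral amino acids and glutamine, had differences of -0.27 and -0.16. SLC3A2 was the exception, with 671, 681, 560 and 603 CPM: it was lowest in gRNA2, and its difference of 0.09 (0.04 to 0.14) was above 0. SLC7A5, its partner in leucine uptake, had 585 to 603 CPM in 3 libraries and 577 in gRNA2+dox.

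The remaining outputs split. GDF15 had 82, 74, 130 and 74 reads (4.02, 3.29, 4.99 and 3.39 CPM), so gRNA2+dox was close to CTL+dox. GDF15 was highest in gRNA2, but its log2 ratio of gRNA2 against CTL, 0.31, had an interval that held 0 (-0.10 to 0.73). Its log2 ratio of -0.56 (-0.99 to -0.14) in the gRNA2 cells came with -0.29 (-0.76 to 0.18) in the CTL cells, and the difference, -0.27, had an interval from -0.88 to 0.34. VLDLR, a lipoprotein receptor, had 45.7, 46.7, 52.2 and 44.0 CPM and a difference of -0.28 (-0.45 to -0.10), again with gRNA2 as the high library. EIF4EBP1 had a difference of -0.26, from -0.20 (-0.26 to -0.14) with the guide and 0.06 (0.00 to 0.13) without it. CHAC1, an enzyme that degrades glutathione, also had -0.26, but its ratio with the guide was -0.08 (-0.23 to 0.07) and that without it 0.18 (0.03 to 0.33). STC2 had a difference of 0.05 (0.01 to 0.08), being lower with doxycycline in both pools. SESN2, which restrains mTORC1 when leucine is short, and DDIT4, another inhibitor of mTORC1, had differences of 0.00 and -0.03 with intervals that held 0, and XPOT, the exporter of tRNA from the nucleus, had -0.10 (-0.19 to -0.02).

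tRNA synthetases load each amino acid onto its tRNA, and ATF4 is known to induce many of the cytosolic ones. Of the 9 here, 7 had a log2 ratio below 0 with doxycycline in the gRNA2 cells, with a median of -0.09, and 7 a difference between pools below 0, with a median of -0.12. None passed the rule of 0.5 in any comparison, and all 9 differences were within 0.25. IARS, for isoleucine, had 103, 112, 94.4 and 87.6 CPM and a difference of -0.23 (-0.35 to -0.11), and CARS, for cysteine, had 83.2, 84.8, 80.9 and 72.5 CPM and a difference of -0.18 (-0.32 to -0.05). IARS was low in both libraries of the gRNA2 cells, whereas CARS was low in gRNA2+dox alone. AARS, for alanine, and EPRS, for glutamate and proline, went the other way, with differences of 0.10 (0.03 to 0.18) and 0.11 (0.03 to 0.19).

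The 14 other cytosolic synthetases and their scaffold proteins, which are not counted among reported targets here, had a median log2 ratio of 0.08 with doxycycline in the gRNA2 cells and a median difference of 0.06. Below 0 were 4 of the 14 ratios and 5 of the 14 differences. TARS, for threonine, was below 0 in both, with a ratio of -0.08 (-0.14 to -0.03) and a difference of -0.12 (-0.20 to -0.05). It was the 1 gene of 11 with a promoter window that held the TGATGNAA core. FARSB, a subunit of the phenylalanine enzyme, had a ratio of 0.37 and HARS, for histidine, of 0.26. WARS, for tryptophan, had 12785, 14671, 21640 and 20982 reads, high in both libraries of the gRNA2 cells, and was the single gene of the 14 that passed the rule, at 0.56 between gRNA2+dox and CTL+dox. The largest differences between pools in these 14 were -0.23 (-0.45 to -0.02) for AIMP2, a scaffold protein, and 0.17 (-0.13 to 0.48) for FARSB. The whole levels were 2226, 2190, 2298 and 2147 CPM for the 9 synthetases and 1934, 2001, 2200 and 2388 CPM for the 14. WARS alone made up 626, 651, 831 and 961 CPM of the latter, and so most of its rise. The contrast between the 2 lists was not tested, since all their genes come from the same 4 libraries. The 17 mitochondrial synthetases had a median ratio of 0.04 and a median difference of -0.04, with 0 past the rule. The largest differences in that list were -0.49 (-0.87 to -0.11) for YARS2 and -0.30 (-0.63 to 0.02) for NARS2.

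Upstream and beside ATF4, values stayed near those of all genes. The 18 genes for the eIF2 kinases, eIF2, its exchange factor and its phosphatases had a median difference of -0.03, and 0 of 18 passed the rule in any comparison. The largest differences among them were -0.26 for IMPACT and -0.26 for KIAA0141 (DELE1), with intervals of -0.75 to 0.23 and -0.52 to -0.0002. IMPACT restrains the kinase GCN2, and DELE1 relays mitochondrial stress. The 15 genes of the ATF6 and IRE1 branches of the unfolded protein response had a median difference of 0.00, with 0 of 15 past the rule. The largest of these differences were 0.23 (-0.02 to 0.49) for ERN1, which encodes IRE1, and 0.20 (0.06 to 0.33) for SEL1L. HSPA5 (BiP), the main chaperone of the endoplasmic reticulum, had 0.00. The 16 further reported targets and folate enzymes had a median difference of -0.12, below 0 in 11. SLC43A1, an amino acid carrier with at most 86 reads, was lower in gRNA2+dox than in gRNA2 (log2 ratio -0.67). FGF21 had 7, 12, 16 and 6 reads, too few for its difference of -1.71 to pass the rule.

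Without doxycycline, the gRNA2 cells differed from CTL by a median of 0.01 over the 45 genes, with 21 below 0 (44.5% of tested genes were), and 0 genes passed as lower or higher, where 2.91% and 1.98% of tested genes did (3.56% and 1.46% with total counts alone). With doxycycline, gRNA2+dox against CTL+dox had a median of -0.12, with 38 of 45 below 0 (49.8% of tested genes were). Lower there were 2 genes, CBS at -0.53 (-0.93 to -0.15) and PSAT1 at -0.63 (-0.72 to -0.55), and 0 were higher, where 5.04% and 3.38% of tested genes were. These comparisons have no library in common. Intervals lay below 0 in both for 13 genes: ATF4, CEBPB, CEBPG, PSAT1, MTHFD2, PYCR1, CTH, SLC3A2, SLC1A4, SLC38A2, DDIT4, STC2 and IARS. Of all tested genes 6.05% had this. SARS, for serine, had an interval above 0 in both, as did 10.7% of tested genes. For CEBPG, which pairs with ATF4 on DNA, the pool ratio was -0.34 without and -0.23 with doxycycline, and for CEBPB, another partner, it was -0.24 in both. The libraries of the 2 pools therefore differed in these genes without doxycycline as well, and for CEBPG and SLC3A2 (-0.26 without, -0.17 with) by more than with it.

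**Figure D3:**
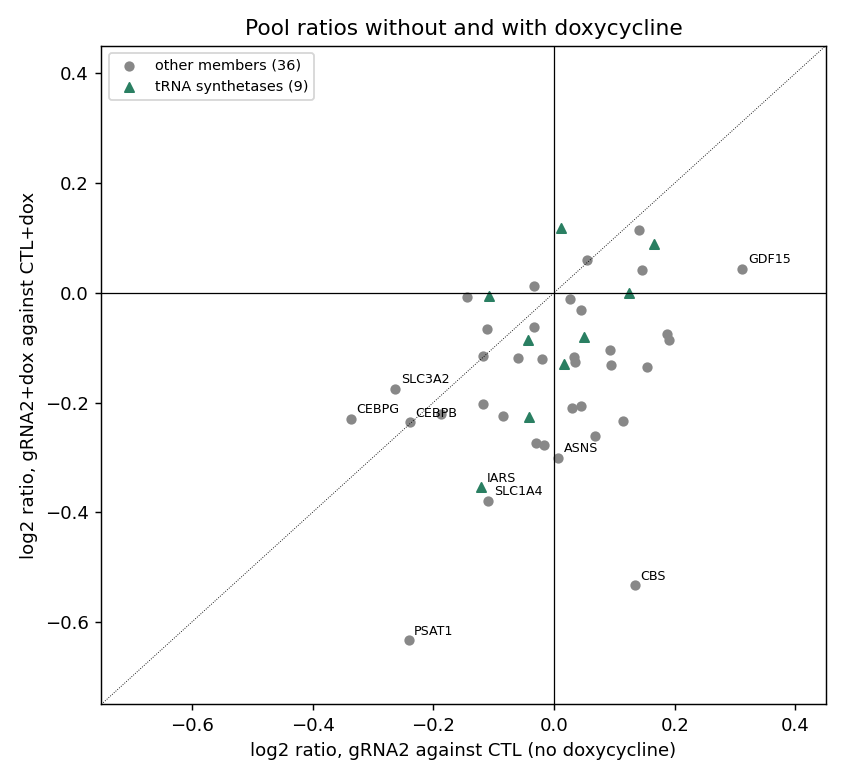
Log2 ratio of the gRNA2 pool against the CTL pool without doxycycline (horizontal) and with it (vertical), 1 point per gene, with the 9 tRNA synthetases as triangles and a dotted line of equal ratios. PSAT1 (-0.24, -0.63) and CBS (0.13, -0.53) lie lowest, and CEBPG (-0.34, -0.23) and SLC3A2 lie farthest left.

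Seen by library, gRNA2+dox was the lowest of the 4 for 31 of the 45 genes, and the other libraries were for 3 (CTL), 5 (CTL+dox) and 6 (gRNA2). Of all tested genes, 26.3% were lowest in gRNA2+dox, with 23.4% (CTL), 29.3% (CTL+dox) and 21.0% (gRNA2) for the others, and of those with a mean of at least 10 CPM 22.4% were lowest in gRNA2+dox. Highest in gRNA2+dox were 2 of the 45, ALDH18A1 and EPRS, against 23.8% of tested genes. With DESeq2 size factors 28 genes were lowest in gRNA2+dox and with total counts alone 34 were, where 25.5% and 30.5% of tested genes were. For the 14 other cytosolic synthetases the count was 2 under each of these scalings. Summed over the 45 genes, the level was 10733, 10684, 10609 and 9913 CPM. In bulk RNA, fewer cells that express a gene and less RNA per cell cannot be told apart.

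Genes with and without the promoter site overlapped in their ratios. The 15 genes with the TGATGNAA core had a median difference between pools of -0.13 (range -0.31 to 0.11), and the 22 with a window but no match had -0.07 (range -0.67 to 0.14). CBS, GDF15 and PSAT1 were among those without a match. With doxycycline in the gRNA2 cells alone, the medians were -0.09 with the core and -0.07 without it.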

How the data were processed

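The authors trimmed reads with fastp, aligned them with STAR to hg38 (per the labels' processing notes) and deposited raw counts per gene, not normalized. The annotation and strand setting are not given in the sources used here. The unstranded count was used, since the first strand held 49.0% to 49.1% of stranded reads. The 4 leading lines, reads on no gene, were left out of totals.

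Counts were scaled with edgeR 4.0.16 (TMM, R 4.3.3) and a prior count of 0.5, scaled by library, entered the log2 ratios. Compared were the 15204 of 26475 genes that reached 10 counts in any library. Exact intervals came from scipy 1.17.1 (Python 3.11.15), and that of a difference of ratios from the normal approximation to its counting error. The steps were tested on simulated data. No p-value was computed. The 45 genes, the other lists and the roles were chosen with earlier results of these data known. In full, the text gives TCOF1, genes past the rule and the 2 largest differences between pools in each role, and in other lists the genes past the rule or the 2 largest.

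Per-kilobase levels used canonical transcript lengths of GENCODE 44 on GRCh37, found for 96.2% of tested genes. Lengths only were taken from that build. Promoters and gene positions are from RefSeq on GRCh38.p14. Results were recomputed with the size factors of DESeq2 1.42.0, with total counts, with other priors, filters and thresholds, and after thinning. Some genes of the other lists are not reported here.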

Additional observations from a re-analysis of the deposited data

Results flagged for a closer look

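CBS had doxycycline ratios that pointed in opposite directions in the 2 cell pools, and their difference passed the rule of 0.5 with an interval off 0. The log2 ratio was -0.54 for gRNA2 cells and 0.13 for CTL cells, a difference of -0.67. With 1 library per condition this difference was not tested, and the interval covers counting error only.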

How the results depend on the processing

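No paired analysis was possible because there was 1 library per condition, and for the same reason no replicate could be left out. Medians close to 0 changed sign with the scaling. The median of the 45 genes in gRNA2 against CTL was -0.0096 with DESeq2 size factors and -0.037 with total counts alone, and in CTL+dox against CTL -0.013 with total counts. For the tRNA synthetases the median in CTL+dox against CTL was -0.0080 with DESeq2 size factors, -0.025 with total counts and -0.0031 after thinning to the smallest total, and in gRNA2 against CTL -0.0096 and -0.037 with the first 2 of these. In gRNA2 against CTL, total counts gave -0.019 for the serine and one-carbon enzymes and -0.017 for the transporters, and thinning gave 0.0011 for the other amino acid enzymes. The counts of lower genes depended on the threshold. At a log2 ratio of 0.25 they were 7 in gRNA2+dox against gRNA2, 2 in gRNA2 against CTL, 8 in gRNA2+dox against CTL+dox and 11 for the difference between pools, where 7.07%, 6.11%, 11.0% and 8.60% of tested genes were lower. At a log2 ratio of 1, and at a stand-in for the cutoffs of the study, they were 0 in gRNA2+dox against gRNA2, in gRNA2+dox against CTL+dox and for the difference. The stand-in used a counting bound in place of the GFOLD score of the authors, which was not computed. The difference between pools was below 0 in 35 to 37 of the 45 genes under every alternative. The share of genes with at least 10 CPM on average was chosen as a background after the data were seen. Depth limits GDF15, CBS and JDP2 most, which had at most 326 reads in any library.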
